A study of Rattus norvegicus with 6 samples.

Results

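Translation initiation factors are the proteins that bring the ribosome to the start codon of an mRNA. Their genes were taken here as all gene models whose name in the deposited rat assembly begins with Eif1 to Eif6 in either case, without the eIF2 kinases, whose names begin with Eif2ak. The rule gave 53 of 24579 gene models, with 145 of the 60887 transcripts. Of the 53, the 4 genes Eif2c1 to Eif2c4 are listed by RefSeq as older names of the Argonaute genes, whose proteins carry microRNAs and are not initiation factors. They were kept because the rule takes them, and the other 49 are described by role.

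The cells were primary beta cells of the rat pancreas, purified by fluorescence-activated sorting and kept in culture. In each of 3 batches one culture received 30 nM of an siRNA against Nova1, a neuronal RNA-binding protein that regulates alternative splicing, and another received 30 nM of a negative control siRNA. Lipid transfection lasted 16 h in both groups and was followed by 48 h of recovery, so that 3 Nova1 knockdown libraries stood against 3 control libraries of poly(A) RNA. The strain, sex and age of the rats, and whether each batch came from separate animals, were not given in the sources used here. P-values therefore cover no more than these 3 batches and rest on how the difference between knockdown and control varied over them. The variance of each gene was also moderated towards a value shared by all genes tested, so it does not come from that gene alone.

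Initiation in animal cells starts with eIF2, which carries the initiator tRNA to the small ribosomal subunit, where eIF1, eIF1A, eIF3 and eIF5 join it. The eIF4 proteins bind the cap of the mRNA and unwind it, the complex scans to a start codon, and eIF5B then joins the large subunit. Beta cells make large amounts of proinsulin, and in them phosphorylation of eIF2 by the kinase PERK is a known brake on protein synthesis under stress of the endoplasmic reticulum.

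Knockdown libraries held between 95394043 and 146453308 estimated reads, and control libraries between 122637234 and 292432076. Nova1 had 7.76, 10.2 and 9.43 CPM (reads relative to the scaled depth of the library) in the knockdown libraries of batches 1, 2 and 3, against 20.6, 21.5 and 17.4 CPM in control, which is -1.12 on the log2 scale (SE 0.11, adjusted p = 0.038 in limma). In the deposited RPKM the Nova1 groups overlapped, with 1.38, 2.38 and 1.81 in knockdown libraries and 5.06, 2.83 and 2.03 in control. The Nova1 call was lost without batch 1, without batch 2, without the batch block and with limma-trend on log2(RPKM + pseudocount), where the value was -0.54 to -0.76. The beta-cell genes Ins1 and Ins2 took 9.84% to 21.4% of knockdown reads and 13.2% to 21.7% of control reads, and none of the 9 beta-cell markers tested passed the test. Of these 9, 3 had a positive and 6 a negative log2 fold change (median -0.12). Markers of stellate cells and fibroblasts summed to 137 to 173 CPM in knockdown libraries and 58.5 to 133 CPM in control, and Col3a1 and Col5a1 among their 11 tested genes rose. The log2 fold change was positive in 10 and negative in 1 of these genes (median 0.56). Immune markers summed to 16.3 to 28.4 CPM in knockdown libraries and 17.7 to 21.1 CPM in control, and of 9 tested Lyz2 rose and C1qa fell. Among the 9, 7 had a positive and 2 a negative log2 fold change (median 0.96). Acinar markers summed to 134 to 386 CPM in knockdown libraries and 189 to 519 CPM in control, where Ctrb1 fell among 11. The log2 fold change was negative in 10 and positive in 1 of the 11 (median -0.40). Nefm rose among 5 neuron and Schwann cell markers, which summed to 100.2 to 125 CPM in knockdown libraries and 96.4 to 122 CPM in control. With Nefm, 2 of the 5 had a positive log2 fold change and 3 a negative one (median -0.19). Alpha (7198 to 13940 CPM in knockdown libraries, 5307 to 13060 in control), delta, PP, duct and endothelial markers held no call. All 5 alpha markers had positive log2 fold changes (median 0.26). No marker list had a gene at 0 in all libraries, and the part of these other cells in the results below was not tested. In bulk RNA, fewer cells of a type and less RNA per cell cannot be told apart.

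All 53 genes were expressed enough to be tested, most of them at high levels. The values used to compare genes are RPKM, in which reads are divided by the length of the transcript and by the depth of the library. Averaged over the 6 libraries, 42 of the 53 lay above 10 RPKM and 5 above 100 RPKM, while 5410 and 597 of all 15983 genes tested did so. The median was 31.2 RPKM for the family and 4.98 RPKM for all genes tested. Eif1, which keeps the scanning ribosome from starting at the wrong codon, had the highest level of the family, between 340 and 438 RPKM over the 6 libraries. Eif4a2 (209 to 282 RPKM), Eif5a (175 to 261 RPKM), Eif4g2 (117 to 218 RPKM) and Eif4a1 (136 to 156 RPKM) followed. The range of Eif1 did not overlap that of Eif4a2, and the range of Eif4a1 did not overlap that of Eif3e, the next in order at 63.0 to 117 RPKM. Among the neighbours from Eif4a2 to Eif4a1, and from Eif3e down to Eif2b3, each range overlapped the next. The lowest gene was Eif4e1b, a relative of eIF4E known from mouse oocytes, at 0.287 to 0.51 RPKM.

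**Figure D1:**
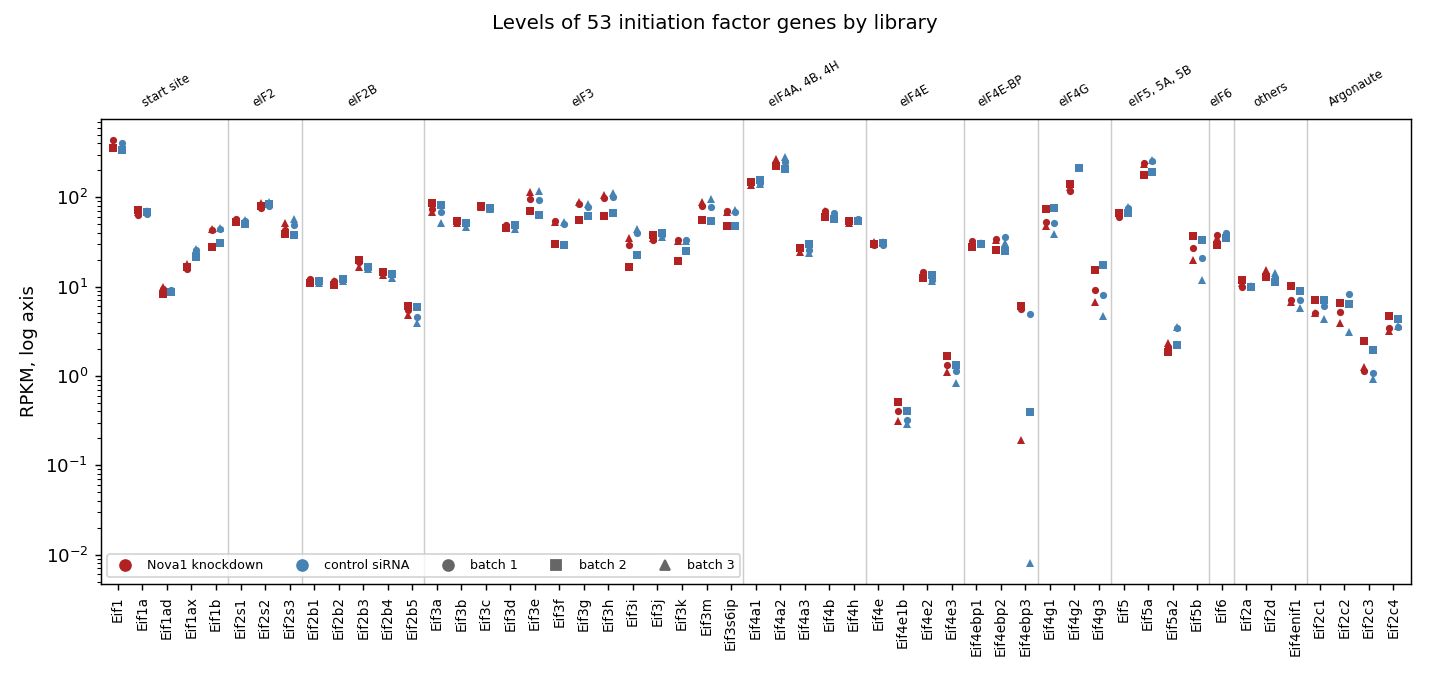
Level of the 53 genes in each of the 6 libraries, in RPKM on a log axis, grouped by role, with knockdown libraries in red to the left of control libraries in blue and marker shapes for the batches. Eif1 lies highest, at 340 to 438 RPKM, all red points of Eif4g2 and Eif1ax lie below all their blue points, and Eif4ebp3 spreads from 0.00815 to 6.10 RPKM.

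Of the 53 genes, 2 passed the test and both fell: Eif4g2 and Eif1ax. None rose, and the background in this comparison was 1.71% of 15983 genes called, 0.513% higher and 1.2% lower. The calls concern these 2 genes, and nothing is read from their number about the family. At an unadjusted p below 0.05 it held 10 genes, against 23.9% of all genes tested. Log2 fold changes were positive in 21 and negative in 32 members, with a median of -0.03 against 0.004 over all genes tested. Only 3 genes, Eif4g2, Eif1ax and Eif3j, had CPM below the control range in all knockdown libraries (4.1% of all genes did), and 0 lay above it (3.96%). In RPKM the set was another one: Eif4g2, Eif1ax, Eif2b2 and Eif5 lay below. Eif3c lay above, with 80.1, 79.5 and 77.8 RPKM in knockdown libraries and 75.2, 75.7 and 73.6 in control. The share over all genes was not counted in RPKM, and nothing is read from this set. The fold changes had one sign in all 3 batches for 23 of the 53.

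**Figure D2:**
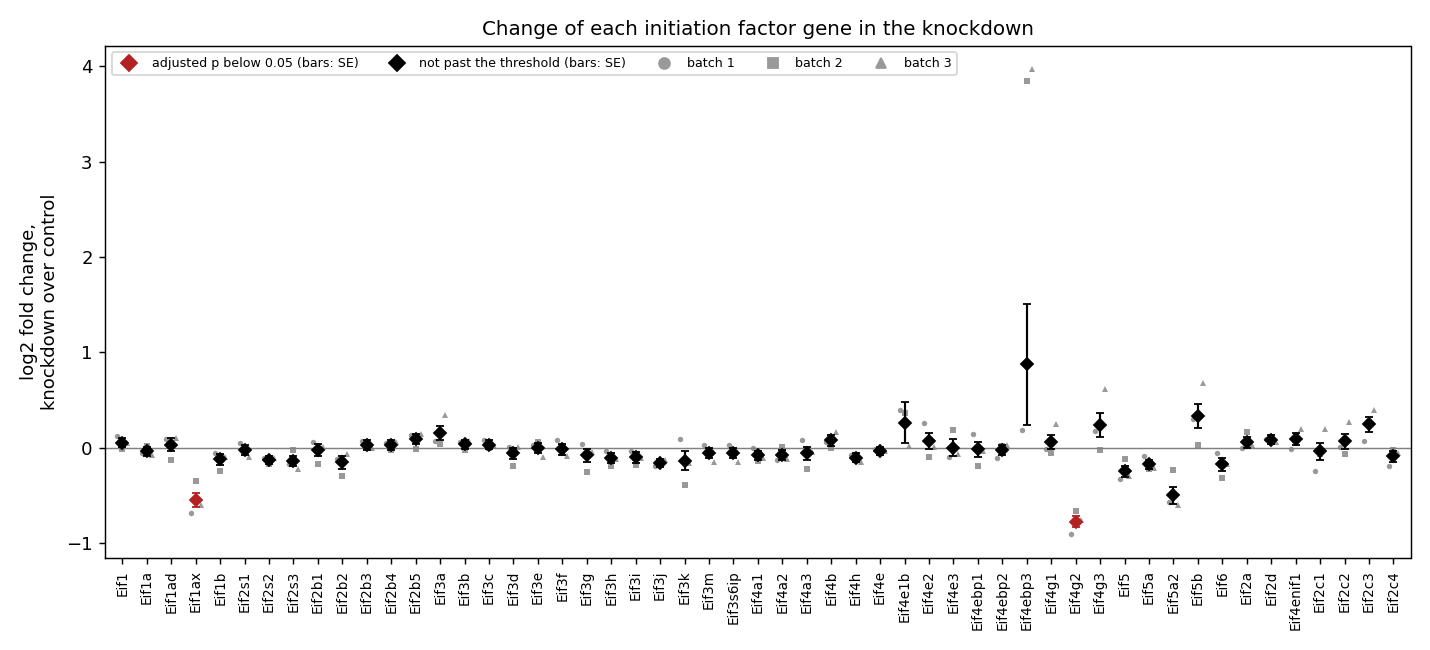
Log2 fold change of knockdown over control for each gene from the fit across all genes, with its standard error as a bar, and the change within each batch as a grey symbol. Eif1ax (-0.55) and Eif4g2 (-0.78) are drawn in red as the genes past an adjusted p of 0.05; nearly all the others lie within 0.3 of 0, and the bar of Eif4ebp3 is the widest.

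Eif4g2 fell by 41.6%. Its protein, also called DAP5, resembles the C-terminal part of the scaffold eIF4G but lacks the site for the cap-binding protein, and it is known for cap-independent initiation on selected mRNAs. The gene lies on chromosome 1, at chr1:182868165-182880396 of Rnor_5.0 on the minus strand, and shares no exonic bases with another gene model. Its level was 117, 140.1 and 129.6 RPKM in the knockdown libraries of batches 1, 2 and 3, against 218, 210.1 and 209.8 RPKM in control. Every knockdown library lay below every control library, and in RPKM the control libraries lay within a narrow band. In CPM, the scale of the test, control varied more, with 1148, 1019 and 1145 (SD 73.3). The knockdown libraries had 610, 644 and 678 CPM (SD 34.2). The group means were 129 ± 11.7 RPKM in knockdown and 213 ± 4.54 RPKM in control (SD, n = 3 each). On scaled reads its log2 fold change was -0.78 (SE 0.06), with an adjusted p of 0.036 in limma, and it was -0.91, -0.66 and -0.75 in batches 1, 2 and 3. By mean RPKM it ranked 4 of the 53. The call was lost without the batch block (adjusted p = 1.00), without batch 1 (0.15) or batch 2 (0.16), and in limma-trend fits of log2(RPKM + 1) (0.15).

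The 3 main Eif4g2 transcripts all had lower means in the knockdown. The transcript of 4956 nt had 66.0, 81.6 and 82.3 RPKM in knockdown libraries and 103, 145 and 124 RPKM in control. The transcript of 4905 nt had 17.4, 17.4 and 18.2 RPKM in knockdown libraries and 32.0, 29.5 and 31.7 RPKM in control. Neither pair of groups overlapped. The transcript of 4988 nt had 31.9, 41.1 and 28.0 RPKM in knockdown libraries and 81.5, 35.4 and 53.6 RPKM in control, where the knockdown library of batch 2 lay above its control. An exon of 114 nt, at chr1:182873761-182873874 on the minus strand, is skipped in part of the transcripts. It was included in 83.9%, 87.6% and 85.1% of the gene's RNA in knockdown libraries and in 84.8%, 86.0% and 84.7% in control, so the groups overlapped. The shares of the transcripts did not pass the test (adjusted p between 0.879 and 0.995 in limma).

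The other scaffold genes of the group did not pass. Eif4g1, the main eIF4G, had 53.1, 74.1 and 47.5 RPKM in knockdown libraries and 51.2, 74.7 and 38.4 RPKM in control (log2 fold change 0.06, SE 0.07). Eif4g3, its close paralog, had 9.07, 15.2 and 6.79 RPKM in knockdown libraries and 8.14, 17.4 and 4.67 RPKM in control (log2 fold change 0.24, SE 0.12, adjusted p = 0.30). In both genes the batches differed more than the treatments, with batch 2 highest in each group. Eif4g1 had a negative sign in 2 of 13 other settings, and the difference between Eif4g2 and these paralogs was not tested.

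Eif1ax fell by 31.8%. It encodes eIF1A, which binds the decoding site of the small subunit and helps the scanning complex choose the start codon, and it lies on the X chromosome at chrX:37884745-37901917 of Rnor_5.0. Its level was 15.5, 16.7 and 17.8 RPKM in the knockdown libraries of batches 1, 2 and 3, against 26.0, 21.1 and 26.0 RPKM in control. All knockdown libraries lay below all control libraries, with the smallest gap in batch 2. The means were 16.7 ± 1.15 RPKM in knockdown and 24.4 ± 2.81 RPKM in control (SD, n = 3 each). The log2 fold change was -0.55 (SE 0.08), with an adjusted p of 0.046 in limma, and -0.69, -0.35 and -0.61 in batches 1, 2 and 3. In the other 13 settings it ranged from -0.65 to -0.48 and passed in 3 of them, and leaving out any 1 batch ended the call (adjusted p between 0.088 and 0.20).

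Of the 2 Eif1ax transcripts, the shorter one lay lower in every knockdown library and the longer one did not. They share all 6 introns, and the longer one (4890 nt) extends the shorter one (3115 nt) at both ends, by 1526 nt at the 3′ end. The transcript of 3115 nt had 12.8, 13.1 and 15.1 RPKM in knockdown libraries and 23.6, 18.4 and 22.1 RPKM in control, without overlap. The transcript of 4890 nt had 2.74, 3.60 and 2.69 RPKM in knockdown libraries and 2.32, 2.73 and 3.94 RPKM in control, with overlap. The longer transcript made up 18.1 ± 3.24% of the gene in knockdown and 12.3 ± 3.15% in control (SD, n = 3 each), a difference that did not pass (adjusted p = 0.60 in limma).

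**Figure D3:**
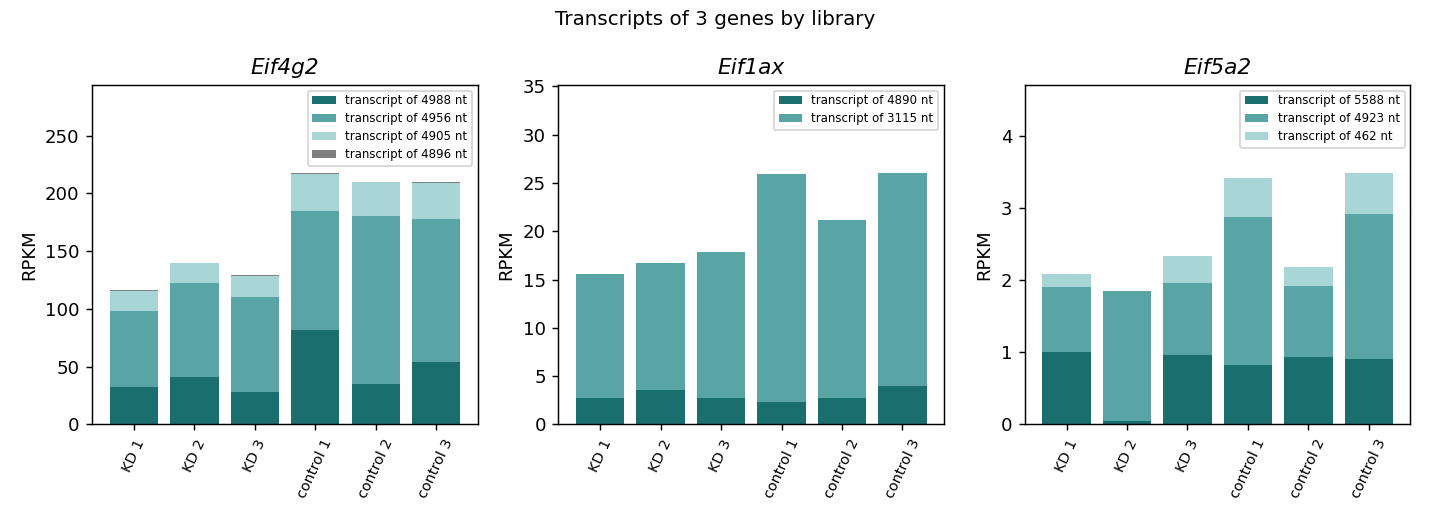
RPKM of each transcript of Eif4g2, Eif1ax and Eif5a2, stacked, in the knockdown (KD) libraries of batches 1, 2 and 3 and then in the control libraries. Eif4g2 stands at 117, 140.1 and 129.6 RPKM in knockdown against 218, 210.1 and 209.8 in control, and the 3115 nt transcript of Eif1ax is lower in every knockdown library than in control.

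The other genes of start-site choice were close between groups. Eif1a, a second gene named for eIF1A, had 68.0 ± 4.19 RPKM in knockdown and 67.6 ± 2.11 RPKM in control (SD, n = 3 each), a log2 fold change of -0.04 (SE 0.05). Eif1a and Eif1ax are close relatives, and how the authors' counting treated reads that map to both is not known from the sources used here. Eif1 had 392 ± 42.0 RPKM in knockdown and 366 ± 31.3 RPKM in control (log2 fold change 0.05, SE 0.05). Its paralog Eif1b had 37.8 ± 8.97 RPKM in knockdown and 39.8 ± 7.85 RPKM in control (-0.12, SE 0.06). Eif1ad, named for its eIF1A domain and the lowest of the group, had 9.20 ± 0.79 RPKM in knockdown and 8.87 ± 0.20 RPKM in control. None of these 4 passed the test.

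The subunits of eIF2 and of its exchange factor eIF2B, which reloads eIF2 with GTP and is blocked by phosphorylated eIF2, held no call. The 3 eIF2 genes all had negative log2 fold changes, of -0.03 for Eif2s1 (alpha, the phosphorylated subunit), -0.13 for Eif2s2 (beta) and -0.14 for Eif2s3 (gamma, which binds GTP and the tRNA). Eif2s2, the highest of the 3, had 76.0, 79.6 and 86.8 RPKM in knockdown libraries and 80.2, 84.6 and 88.4 RPKM in control, with an unadjusted p of 0.032 and an adjusted p of 0.17. Eif2s3, the lowest, had 43.0, 39.1 and 51.5 RPKM in knockdown libraries and 48.7, 37.3 and 57.4 RPKM in control. The 5 eIF2B genes ranged from -0.16 (Eif2b2) to 0.09 (Eif2b5). Eif2b3 was the highest of them, with 18.3 ± 1.68 RPKM in knockdown and 16.5 ± 0.71 in control (SD, n = 3 each). Eif2b5, the catalytic epsilon subunit, was the lowest per length, with 5.46 ± 0.68 RPKM in knockdown and 4.80 ± 1.01 in control. That rank rests on its weighted transcript length of 12003 nt, against 1501 nt for Eif2b3. By reads Eif2b5 was the highest of the 5, with mean CPM of 64.6 in knockdown and 61.1 in control. Eif2b3 had 27.1 and 26.7 CPM. In the Eif2a and Eif2d genes, which encode factors that can deliver a tRNA without eIF2, the log2 fold changes were 0.06 and 0.08, and in Eif4enif1, the eIF4E transporter, 0.09. Eif2d, the highest of these 3, had 13.3, 12.7 and 15.2 RPKM in knockdown libraries and 12.4, 11.2 and 14.0 RPKM in control. Eif4enif1, the lowest, had 7.03, 10.2 and 6.78 RPKM in knockdown libraries and 7.05, 8.88 and 5.68 RPKM in control, and the groups of both genes overlapped. Eif2a is a gene of its own and not the alpha subunit of eIF2.

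The 13 eIF3 genes held no call, with log2 fold changes between -0.16 and 0.15. eIF3 is the large scaffold that holds the small subunit together with the mRNA and the other factors. Among its subunits 10 had a negative and 3 a positive log2 fold change, with a median of -0.06. Eif3a, the largest subunit and a core one, had 73.7, 85.8 and 68.5 RPKM in knockdown libraries and 68.7, 81.3 and 51.3 RPKM in control (log2 fold change 0.15, SE 0.07, adjusted p = 0.28). Eif3j, a loosely bound subunit at the entry of the mRNA channel, had 59.2, 58.3 and 62.2 CPM in knockdown libraries and 67.7, 65.1 and 68.0 CPM in control, where the groups did not overlap. In RPKM they did, with 33.4, 38.0 and 34.7 in knockdown libraries and 37.3, 39.2 and 35.9 in control. It had a log2 fold change of -0.16 (SE 0.05) and an adjusted p of 0.13, and shares exonic bases with Spg11 on the opposite strand. Averaged over the 6 libraries, Eif3e had the highest level and Eif3k the lowest. Eif3e had 93.5 ± 22.7 RPKM in knockdown and 91.4 ± 27.2 in control, and Eif3k 28.4 ± 7.72 RPKM in knockdown and 30.2 ± 4.53 in control (SD, n = 3 each). Neither rank held in both groups, since Eif3h had a mean of 93.0 RPKM in control and Eif3i one of 26.9 RPKM in knockdown.

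Within eIF3 the larger contrast was between batches. In 8 subunits (Eif3e, Eif3f, Eif3g, Eif3h, Eif3i, Eif3k, Eif3m and Eif3s6ip, the gene of eIF3l) the mean RPKM of both batch 2 libraries was 0.53 to 0.71 of the mean of batches 1 and 3. In the other 5 (Eif3a, Eif3b, Eif3c, Eif3d and Eif3j) this ratio was 1.00 to 1.27. Eif3f had 53.8, 29.9 and 52.2 RPKM in knockdown libraries and 49.6, 28.9 and 53.4 RPKM in control, so the knockdown and control libraries of a batch resembled each other. The division was drawn after these values were seen, at a ratio of 0.8, and is a description. Over all 53 genes 24.5% lay below that ratio, and over all genes tested 19.6%. Longer transcripts had higher ratios, with a Spearman correlation of 0.54 over the 53 genes and 0.41 over all genes tested, where genes share the same 6 libraries. The 8 subunits had transcripts of 812 to 1959 nt, and the other 5 of 1692 to 4780 nt. Highest in batch 2 were Eif4g3 (2.27), Eif2c3 (2.00), Eif5b (1.74) and Eif4g1 (1.57). Batch 2 also had the lowest share of insulin reads, 9.84% in knockdown and 13.2% in control, and the part of either measure in the pattern was not tested.

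**Figure D4:**
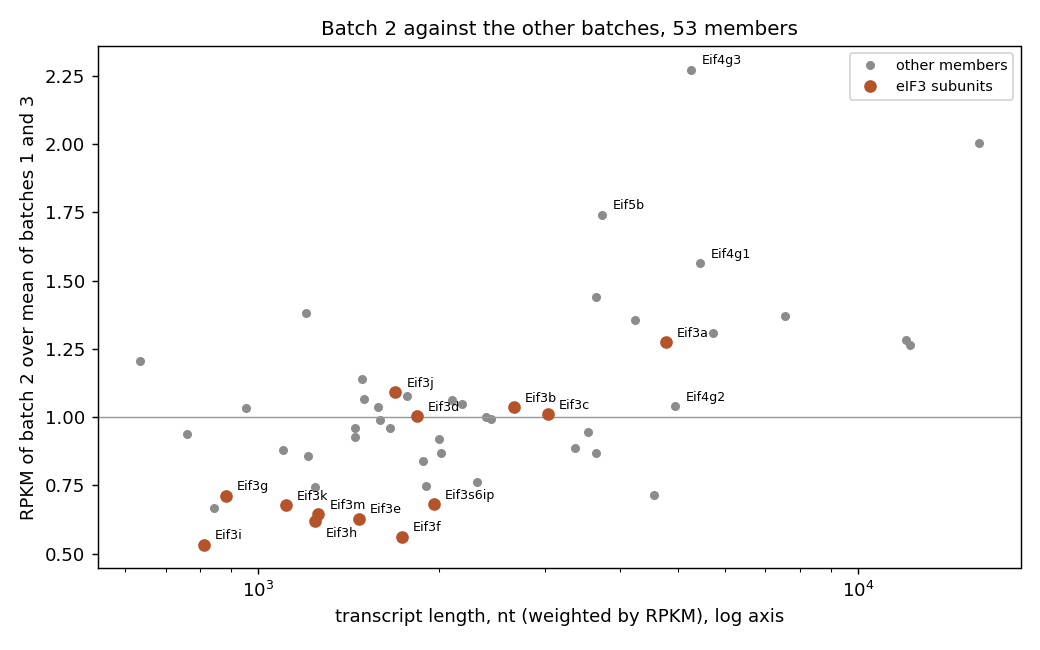
Ratio of the mean RPKM of batch 2 to that of batches 1 and 3 for each of the 53 genes, against transcript length in nt on a log axis, with eIF3 subunits in orange. Of the 13 subunits 8 lie between 0.53 and 0.71 and the other 5 between 1.00 and 1.27, and Eif4g3 lies highest at 2.27.

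mRNAs of ribosomal proteins and of several initiation factors are known to begin with a run of pyrimidines, through which the TOR kinase controls their translation. The 30 bases around the annotated start (15 before it and 15 from it on) were read on the strand of the gene from RefSeq, assembly GRCr8, and searched on that strand for a run of at least 8 C or T. Of the 53 genes 47 had an entry, with 50 windows, and 9 windows (18.0%) held such a run, against 11.4% of 33469 windows of all genes. The windows below show the run, in capitals, for subunits of eIF2 and eIF3, and both genes that fell, which have none.
Eif2s3 (chrX:62933685-62933714, minus): ggcggcagccgagcaTTTTCCTTTTCTCTC
Eif3f (chr1:172369047-172369076, plus): tcacgcccttccgttctagCCTCTCTCTTT
Eif3i (chr5:147226896-147226925, minus): cagTCTTCTTCCggtcctactcacattgcc
Eif3k (chr1:93397473-93397502, minus): TCTTTTTCTTCCggtccttgagtacttagt
Eif3m (chr3:111897179-111897208, minus): cgtaacaccgtgtggtaccgCTCCTTTTCC
Eif3d (chr7:111432726-111432755, minus): TTCCCTCCTgtcttggtccctgcgagtatc
Eif4g2 (chr1:174628238-174628267, minus): acgcctcagcgccagcagcgagccggagct
Eif1ax (chrX:39322009-39322038, minus): gagggccgggggaagcaccgcccgctgccg
Of those shown, the run begins at or after the annotated start in Eif2s3, Eif3f and Eif3m, and lies before it in Eif3i, Eif3k and Eif3d. Eif1ax is on opposite strands in the 2 assemblies. Of the 8 subunits that were low in batch 2, 6 had a window and 4 of these a run, and of the other 5 subunits 1 had a run. The 9 genes with a run had a median log2 fold change of -0.06 and the 38 without one -0.03. Their batch 2 ratios had medians of 0.76 with a run and 1.02 without one. A run of this kind is a match of letters in the annotated window and says nothing of where transcripts start in these cells.

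The helicase and cap-binding genes held no call. Eif4a2 and Eif4a1, which encode the paralogous helicases that unwind the mRNA leader, both had a log2 fold change of -0.08 (SE 0.05). Eif4a2 had 239 ± 27.2 RPKM in knockdown and 245 ± 36.6 in control, and Eif4a1 had 144 ± 6.89 RPKM in knockdown and 147 ± 7.76 in control (SD, n = 3 each). Eif4a2 shares exonic bases with Rfc4 on the opposite strand. Eif4a3, whose protein belongs to the exon junction complex, was the lowest of the group at 26.1 ± 1.72 RPKM in knockdown and 26.5 ± 3.15 in control. The helicase cofactors Eif4b and Eif4h had log2 fold changes of 0.07 and -0.11. Eif4e, the cap-binding protein itself, had 29.0, 30.2 and 31.7 RPKM in knockdown libraries and 29.2, 30.5 and 31.3 RPKM in control, with nearly equal values in both groups. Its relatives Eif4e2, Eif4e3 and Eif4e1b had log2 fold changes of 0.07, 0.001 and 0.26, and Eif4e1b had 0.402, 0.51 and 0.309 RPKM in knockdown libraries and 0.318, 0.401 and 0.287 in control.

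The eIF4E-binding proteins, which block eIF4E until TOR phosphorylates them, were measured from 3 genes. Eif4ebp1 had 30.5 ± 2.39 RPKM in knockdown and 30.2 ± 0.59 in control, and Eif4ebp2 had 30.9 ± 4.60 RPKM in knockdown and 30.6 ± 5.68 in control (SD, n = 3 each). Both log2 fold changes were -0.02, and their sign turned in 6 and 5 of 13 other settings. Eif4ebp3 had 5.64, 6.10 and 0.19 RPKM in the knockdown libraries of batches 1, 2 and 3, against 4.95, 0.397 and 0.00815 RPKM in control. It was high in both libraries of batch 1 and in the knockdown library of batch 2, and near 0 in the rest. The log2 fold change was 0.88 (SE 0.64, adjusted p = 0.44). Eif4ebp3 shares exonic bases with Ankhd1 on the same strand, so its values are uncertain.

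The factors of the last steps held no call. Eif5a2 is the less abundant paralog of Eif5a, whose protein carries the modified lysine hypusine and helps the ribosome through difficult stretches and in termination. It had 2.09, 1.85 and 2.33 RPKM in knockdown libraries and 3.42, 2.19 and 3.49 RPKM in control, where the control of batch 2 lay below the knockdown library of batch 3. The log2 fold change was -0.50 (SE 0.09, adjusted p = 0.065 in limma). Eif5a had 240.4, 175 and 234 RPKM in knockdown libraries and 255, 193 and 261 RPKM in control, lower in the knockdown library of each batch but with overlapping groups (-0.18, SE 0.05, adjusted p = 0.13). Eif5, which makes eIF2 hydrolyse GTP at the start codon, had 60.7, 66.0 and 66.6 RPKM in knockdown libraries and 75.6, 67.1 and 78.3 RPKM in control (-0.25, SE 0.06, adjusted p = 0.099). Eif5a2 and Eif5 passed in 1 of 13 other settings, a correction for transcript length (adjusted p = 0.030 and 0.036). Eif5b, the GTPase that joins the subunits, had 26.9, 36.5 and 19.8 RPKM in knockdown libraries and 20.8, 32.8 and 12.0 RPKM in control. Its log2 fold change, 0.33 over all batches (SE 0.12, adjusted p = 0.19), came to 0.30, 0.03 and 0.68 in the batches, and it shares exonic bases with Rev1 on the opposite strand. Eif6, which keeps the large subunit from joining too early, had 38.1, 29.4 and 34.6 RPKM in knockdown libraries and 39.7, 34.8 and 37.3 RPKM in control (-0.18, SE 0.06, adjusted p = 0.19).

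The Argonaute genes held no call either. Eif2c3 had 1.14, 2.47 and 1.26 RPKM in knockdown libraries and 1.08, 1.94 and 0.917 RPKM in control, higher in the knockdown library of each batch (0.24, SE 0.08, adjusted p = 0.15). Eif2c1, the highest of the 4 by mean RPKM over the 6 libraries, had 5.72 ± 1.17 RPKM in knockdown and 5.81 ± 1.33 in control (SD, n = 3 each), with overlapping groups. In control Eif2c2 was higher, at 5.91 ± 2.62 RPKM. By reads Eif2c2 was the higher of these in both groups, with mean CPM of 70.0 in knockdown and 68.1 in control, against 43.7 and 45.3 for Eif2c1. The log2 fold changes of Eif2c1, Eif2c2 and Eif2c4 were -0.04, 0.07 and -0.09. Over the 53 genes the log2 fold change correlated with transcript length at a Spearman rho of 0.21, and over all genes tested at 0.33, where the genes share the same libraries.

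Since the study concerns splicing, the share of each transcript within its gene was compared as well. Of the 53 genes 45 had more than 1 transcript, and 78 of the 145 transcripts were new splice combinations of a known gene. In the test of shares 0 of 117 transcripts of 44 genes passed, against 0.302% of 31429 transcripts and 0.702% of 9538 genes in the background. At an unadjusted p below 0.05 there were 12 transcripts of 6 genes (Eif2b5, Eif2s2, Eif3i, Eif3j, Eif4e and Eif5), where the background was 9.01%. The smallest adjusted p was 0.13, in Eif3j. Its 1811 nt transcript, which starts 2264 nt upstream of the other one, made up 46.4%, 36.8% and 53.0% of the gene in knockdown libraries and 57.5%, 53.0% and 62.7% in control. Each knockdown library lay below the control of its batch, and the groups touched near 53.0% without overlapping.

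In 5 genes the mean share of a transcript differed most between groups, and none of the differences passed. Eif3i, a subunit built of WD repeats, showed its 1058 nt transcript at 80.5%, 100% and 60.6% of the gene in knockdown libraries and at 35.2%, 58.9% and 32.3% in control (adjusted p = 0.45). The rest was a 513 nt transcript, and the annotated one of 979 nt was listed at 0 in all libraries. Since reads of a short transcript weigh more per length, the summed RPKM of Eif3i gave a log2 fold change of -0.40 with limma-trend on log2(RPKM + 1), while the reads gave -0.10 (SE 0.06). In Eif2b3 the 1385 nt transcript held 57.8%, 92.7% and 17.3% in knockdown libraries and 31.8%, 7.87% and 12.3% in control. In Eif2c4 a transcript of 5102 nt held 50.5 ± 9.34% in knockdown and 27.7 ± 9.54% in control, and in Eif3b one of 2462 nt held 46.5 ± 5.32% in knockdown and 29.3 ± 21.3% in control (SD, n = 3 each). In Eif4e3, a gene at 1.36 ± 0.29 RPKM in knockdown and 1.10 ± 0.24 in control, the annotated 4821 nt transcript was listed at 0 in 2 knockdown libraries and made 44.8% in the other, against 54.0%, 83.8% and 99.8% in control. Of the 145 transcripts 8 were listed at 0 in all libraries and 35 in some, where a 0 can be a failed estimate.

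Single exons were described by the share of transcripts that include them among those that include or skip them between the same neighbouring exons. An exon counts once for each pair of neighbours, so that 10 exons of the family gave 11 values, of which 10 (from 9 exons) had at least 1 RPKM in each group. In 1 of the 10 values all knockdown libraries lay above control and in 0 below, against 3.95% and 4.61% of 5167 such values over all genes. It belonged to an exon of 129 nt in Eif4g3 at chr5:160165587-160165715 on the plus strand, included at 65.6%, 67.6% and 69.1% in knockdown libraries and at 49.6%, 42.7% and 58.7% in control. The transcripts behind this value summed to 4.83, 6.98 and 3.66 RPKM in knockdown libraries and 5.25, 5.47 and 1.87 RPKM in control. Of the 14 Eif4g3 transcripts 13 were new, so the split of reads between them is uncertain. With another neighbouring exon the same 129 nt were included at 94.2 ± 10.1% in knockdown and 100 ± 0% in control (SD, n = 3 each), where the groups overlapped. In Eif4h the exon of 60 nt at chr12:27105560-27105619, which one known protein form lacks, was included at 66.0%, 49.8% and 46.3% in knockdown libraries and at 71.5%, 49.9% and 50.2% in control. It was lower in the knockdown library of each batch, but the batches differed far more than the groups. An exon of 21 nt in Eif4g1 was included at 70.9%, 41.8% and 31.1% in knockdown libraries and at 49.7%, 60.0% and 42.2% in control.

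**Figure D5:**
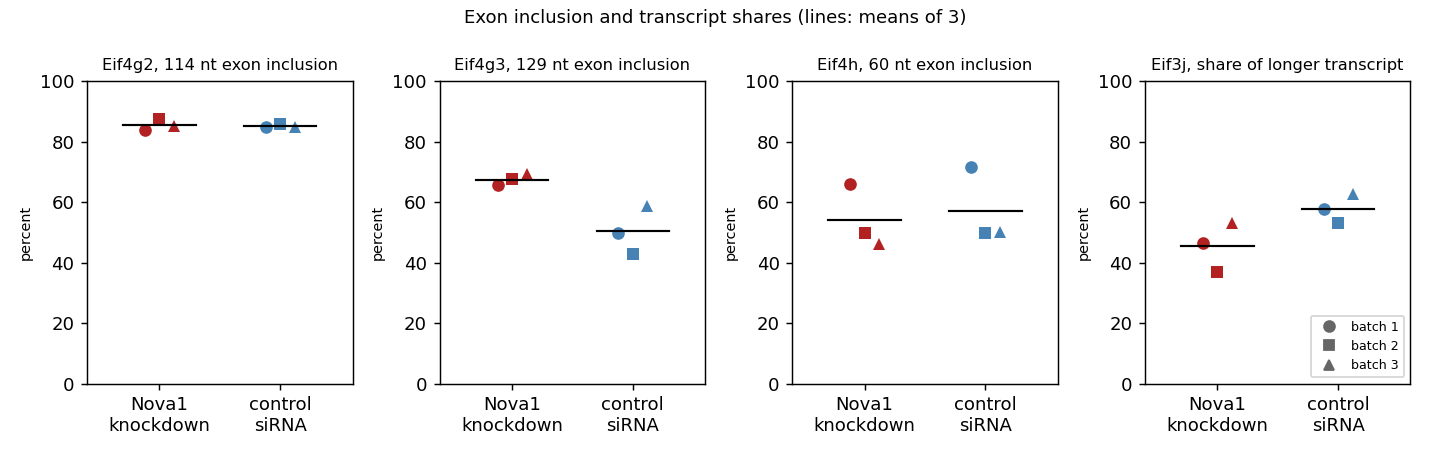
Inclusion of an exon in Eif4g2, Eif4g3 and Eif4h and the share of the longer Eif3j transcript, in percent, for the 3 knockdown libraries on the left and the 3 control libraries on the right of each panel, with the mean as a line. Knockdown and control coincide near 85% in Eif4g2, and for the plotted pair of neighbours the groups do not overlap in Eif4g3 (65.6% to 69.1% in knockdown, 42.7% to 58.7% in control).

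Genes that act beside the initiation factors were read from lists of their regulators and partners. Of 64 symbols 61 matched, in 63 gene models, and 0 rose and 2 fell among them, with 33 positive and 30 negative log2 fold changes and a median of 0.02. Over all genes tested 0.513% rose and 1.2% fell, and nothing is read from the number of calls, here or by list. Cyfip1, a partner of FMRP that can hold eIF4E, had 56.4, 58.3 and 60.6 CPM in knockdown libraries and 75.8, 75.0 and 80.4 CPM in control. It fell by 24.2%, without overlap (log2 fold change -0.40, SE 0.05, adjusted p = 0.042 in limma). Mcts1, which with Denr recycles small subunits and supports reinitiation, had 23.5, 19.4 and 25.2 CPM in knockdown libraries and 29.7, 24.6 and 32.9 CPM in control. It fell by 21.9% (-0.36, SE 0.05, adjusted p = 0.046), lower in each batch though the groups overlapped, and its partner Denr had a log2 fold change of -0.01. Both calls were lost when any 1 batch was left out (adjusted p between 0.080 and 0.21).

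None of the 4 eIF2 kinases passed, with 2 positive and 2 negative log2 fold changes. PERK (Eif2ak3) had 0.04, and Eif2ak4 had the largest, 0.27 (SE 0.07, adjusted p = 0.12 in limma). Among 13 tested genes of the eIF2 phosphatase and stress response 0 passed, with 9 positive and 4 negative log2 fold changes and a median of 0.07. An unadjusted p below 0.05 in limma was reached by 4 of the 13, against 23.9% of all genes tested. Ppp1r15b had 0.22 (SE 0.05, adjusted p = 0.081), and Atf4 and its target Asns had -0.01 and -0.08. Like Eif2ak4 and Ppp1r15b, Impact, an inhibitor of the eIF2 kinase GCN2, was named after its values were seen. It had 44.6, 61.7 and 57.5 CPM in knockdown libraries and 95.2, 82.0 and 106 CPM in control, without overlap, a log2 fold change of -0.80 (SE 0.13) and an adjusted p of 0.056 (0.028 with the correction for transcript length). The TOR and cap control list had 1 call, Cyfip1, among 17, and the list of poly(A) and helicase partners 1, Mcts1, among 13. The 9 elongation factors, 5 release factor models and 2 hypusine enzymes held none, and Dhps, the first enzyme that modifies Eif5a, stood at -0.31 on the log2 scale (SE 0.05, adjusted p = 0.063).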

How the data were processed

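Per the labels' protocols, poly(A) RNA was fragmented, products of 200 bp were excised from a gel, and libraries ran on a HiSeq 2000. Per the submitters' processing notes, TopHat aligned the reads to the rat assembly Rnor_5.0. The authors deposited, as attribute text for every transcript, its estimated reads, its length and its RPKM. The program and strand setting behind these values were not stated in the sources used here. Member read sums were even in 94.3% of 318 values (tolerance 0.01), so both mates of a pair may be counted.

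Reads were summed per gene, scaled by the trimmed mean of M values, with 30% of M and 5% of A left out, and fitted with voom in limma 3.58.1 (R 4.3.3) with batch as a block. Genes entered where at least 3 libraries reached what 10 reads are at median depth and the total was at least 15. The fit leaves 2 residual degrees of freedom per gene. The empirical Bayes step of limma therefore moderated each gene's variance towards a value shared by all genes tested, and SE and p-values use the moderated variance. P-values are two-sided and Benjamini-Hochberg adjusted over all 15983 genes (threshold 0.05). Transcript shares were tested with diffSplice, and both fits were first tested on simulated data. Deviations from the group means correlated at 0.38, 0.72 and 0.55 between the libraries of batches 1, 2 and 3, and the labels make the number a shared batch, so the numbers pair the libraries.

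The members, gene lists and markers were chosen with earlier results of these data known. Full values were given by a fixed rule to called members, to the 3 higher and 3 lower members with the smallest p, to the highest and lowest of each role, to paralog pairs, to the 5 genes with the largest difference in share and to called neighbours; others were named after their values were seen. Start windows are from RefSeq (GRCr8), matched by symbol or synonym. Coordinates of genes and exons are those of Rnor_5.0. Alternatives were other scalings, filters, limma-trend on log2(RPKM + 1), + 0.1 or + 0.01, leaving out each batch, no block, a length correction, diffSplice on log2(RPKM + 0.1), transcripts with at least 10% of their gene and, added after seeing the data, scaling factors computed before the filter.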

Additional observations from a re-analysis of the deposited data

How the results depend on the processing

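The 2 genes that fell in the family became 0 without the replicate block (2 at an unadjusted p below 0.05), 0 with limma-trend on log2(RPKM + 1), + 0.1 or + 0.01, 1 with library totals alone, with a filter 5 times stricter and with scaling factors computed before the filter (Eif4g2 each time), and 4 with the length correction (Eif1ax, Eif4g2, Eif5 and Eif5a2). Leaving out 1 batch gave 0 to 1, and the 1 was Eif4g2 without batch 3. Eif4g2 kept its direction in all 13 other settings, at -0.86 to -0.71, and passed in 7. For Nova1 the log2 fold change was -1.12 without the replicate block, -1.25 to -0.98 with 1 batch left out, and -0.54, -0.73 and -0.76 with limma-trend at the 3 pseudocounts, and no call was made in any of these but the fit without batch 3. The causes were not tested. No family gene rose and no family transcript passed in any setting, though in the fit of shares 27 transcripts had an unadjusted p below 0.05 without batch 2, against 12. Over all genes 274 calls became 0 without the block, 0 to 75 without 1 batch, 250 with median of ratios scaling, 91 with library totals alone (47 higher and 44 lower, against 82 and 192), 171 without a filter, 119 with the stricter filter, 614 with the length correction and 72 with scaling factors before the filter. With limma-trend 0 genes were called at each of the 3 pseudocounts, where the smallest adjusted p was 0.14 to 0.15. Of the 53 genes 33 kept their sign in every setting, and the other 20 had a log2 fold change of at most 0.09 in size. Cyfip1 and Mcts1 lost their calls without the block (adjusted p = 1.00 for both), with any 1 batch left out and with library totals alone. They also lost them in all 3 limma-trend settings, where no gene passed. In the main fit the smallest adjusted p over all genes in limma was 0.036, so all 274 calls lay close to the threshold of 0.05.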
